A study of Mus musculus with 16 samples.

Results

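The comparison set 4 libraries of mouse CD4+ T cells transfected with a miR-24 mimic against 4 libraries transfected with a control mimic, which are 8 of the 16 libraries of the study. The members are these 8 libraries, taken by their titles, with the counts of all 23337 gene symbols. The other libraries received a miR-23a or a miR-27a mimic, 4 each, and shared the fit. All cells came from C57BL/6 mice of the genotype Dgcr8f/f Tbet-/- CD4-cre, so the control cells carried the same alleles as the miR-24 cells. Dgcr8 encodes a protein that cells need to process most microRNAs, and it was deleted by a Cre that is active in developing T cells. Tbx21 encodes T-bet, the transcription factor that drives Th1 cells. CD4+ cells enriched from spleen and lymph nodes received CD3 and CD28 stimulation and 10 U/ml of IL-4 for 3 days, then rested for 2 days in 20 U/ml of IL-2. On day 1 and day 4 they were electroporated with 500 nM of a double-stranded synthetic microRNA (miRIDIAN), called a mimic, and 150000 to 800000 live CD4+ cells with the RosaYFP label were then sorted for RNA. The labels give no age or sex of the mice and do not say which libraries came from separate mice, so the p-values measure the spread between libraries.

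A microRNA is loaded into an Argonaute protein and pairs through its seed, bases 2 to 8, with sites that lie mostly in the 3′ untranslated regions (UTRs) of messenger RNAs, which lowers the stability or the translation of those RNAs. miR-24 is made together with miR-23 and miR-27 from shared primary transcripts, but its seed differs from theirs. Cells without Dgcr8 make few microRNAs of their own, so a mimic adds a single microRNA to a depleted background. The series title links miR-24 and miR-27 to the network that controls Th2 cytokines, and the comparison asks which transcripts change with miR-24 alone.

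The mature sequences are shown from RefSeq (GRCm38.p6) because the seed, in capitals, decides which sites are searched below. The labels do not give the arm of the mimics, and the 3p arm was assumed.
miR-24-3p: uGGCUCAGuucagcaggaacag
miR-23a-3p: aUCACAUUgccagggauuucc
miR-27a-3p: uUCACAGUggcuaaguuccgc
RefSeq places miR-24-3p at chr8:84208875-84208896 (Mir24-2, plus strand), beside miR-23a-3p at chr8:84208563-84208583 and miR-27a-3p at chr8:84208727-84208747, and again at chr13:63301251-63301272 (Mir24-1, plus strand). The strongest kind of site, an 8mer, pairs with the whole seed and has an A opposite base 1. For miR-24 it is CTGAGCCA on the strand of the transcript, and the 7mer-m8 and 7mer-A1 sites are its first and its last 7 bases.

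Sites of the 8 genes with an 8mer that fell with the smallest adjusted p are shown, since these transcripts carry the full match to the mimic's seed. Each line gives the transcript strand up to the end of the site, with the site in capitals, from the longest annotated 3′ UTR of the gene in GENCODE M21 (GRCm38).
Sub1: aatCTGAGCCA
P2rx7: agggctcttaactaCTGAGCCA
Frmd8: gagcagccagtgcaCTGAGCCA
Avl9: tttcaagtcaggtaCTGAGCCA
Sri: ccagtcagaacctcCTGAGCCA
G6pdx: accactggccctatCTGAGCCA
Rnf2: gttcagttttctttCTGAGCCA
Plxnc1: cagaaacgcaaaggCTGAGCCA
The windows lie at chr15:11984207-11984217 (Sub1, minus strand), chr5:122682678-122682699 (P2rx7, plus strand), chr19:5850762-5850783 (Frmd8, minus strand), chr6:56761508-56761529 (Avl9, plus strand), chr5:8067773-8067794 (Sri, plus strand), chrX:74409926-74409947 (G6pdx, minus strand), chr1:151471197-151471218 (Rnf2, minus strand) and chr10:94791438-94791459 (Plxnc1, minus strand). The site of Sub1 begins 3 bases after its stop codon, and that of Avl9 4134 bases after it. Il4, the cytokine that drives Th2 cells, also holds an 8mer, 2 bases after its stop codon.
Il4: taCTGAGCCA
Its window is chr11:53612554-53612563 (minus strand), in a UTR of 104 bases.

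Reads counted in genes ranged from 5863004 to 13220646 in the miR-24 libraries and from 7272860 to 11367506 in control replicates 2 to 4. Control replicate 1 held 51474, so that 1 of its reads was worth 16.3 CPM (CPM is the count scaled for depth, here on TMM library sizes) and 3 reads 48.8 CPM. A value of 0 there is below what that library could detect. Rn45s, which encodes the precursor of ribosomal RNA, made up 1.65% to 19.1% of the reads in genes with miR-24 and 0.300% to 4.41% with control, and its part in the results was not tested. Dgcr8 changed by 0.20 ± 0.24 (log2 fold change ± SE, adjusted p = 0.704) and Tbx21 by 0.84 ± 0.75 (adjusted p = 0.574), and gene counts do not show whether the deleted exons are absent. In the miR-24 libraries the 10 defining T cell markers summed to 3225 to 4289 CPM, against 3565 to 5461 CPM in the control libraries. The 10 granulocyte and mast cell markers stayed at or under 1.57 CPM in total in all 8 libraries, with 7 of them at 0 reads. Genes on the lists of other cell types were also counted, but these sums do not show that such cells were present. Batf3 of the dendritic list and Pecam1 of the stroma list also lie on the T cell transcription factor and adhesion lists below. Cd209a of the dendritic list and Cdh5 and Col3a1 of the stroma list had 0 reads in all 8 libraries. Dendritic cell markers summed to 272 to 607 CPM with miR-24 and 243 to 1004 CPM with control. Class II genes summed to 35.8 to 108 and 29.9 to 107 CPM, and stroma and endothelium markers to 72.0 to 92.0 and 69.8 to 147 CPM. The CD8, B cell, myeloid, NK and erythroid lists stayed at or under 40.6 CPM. Bulk RNA does not tell fewer cells of a type from less RNA per cell.

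With miR-24, 300 genes were higher and 291 lower than with the control mimic among 12952 tested (2.32% and 2.25%, 4.56% together). The fit held group and replicate number and was tested with edgeR's quasi-likelihood test at a Benjamini-Hochberg adjusted p under 0.05, with 2624 genes at an unadjusted p under 0.05. The genes that rose were mostly scarce in the control libraries, with a median level of 8.32 CPM there and a median log2 fold change of 1.54 (0.63 to 7.02). The genes that fell were more abundant in the control libraries, with a median level of 110.6 CPM there and changes of smaller size (median 1.07, from 0.57 to 4.00). The control level also enters the fold change, so part of this contrast follows from the direction itself. Control replicate 1 had no read of 163 of the 300 and of 33 of the 291. Of the genes that rose, 295 were higher in each of the replicate pairs 2, 3 and 4 and 250 in all 4 pairs, and of those that fell the counts were 291 and 231. The same values called these genes, so the pair counts are no separate support for them. The libraries of both groups did not overlap for 146 and 164 of them, against 878 of all tested genes (6.78%), and without control replicate 1 for 183 and 222, against 1487 (11.5%).

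The size of this set depended on the design. With group as the only term, 110 genes passed (38 higher, 72 lower, 0.849% of those tested), all of them among the 591. Without control replicate 1 and with the replicate number kept, 481 of 13327 passed (223 higher, 258 lower; 1.67%, 1.94% and 3.61% together), among them 210 of the 300 and 226 of the 291. Leaving out control replicate 3 or 4 gave 123 and 254 genes, and leaving out miR-24 replicate 1, 2, 3 or 4 gave 1490, 183, 149 and 316. DESeq2 called 1029 (622 higher, 407 lower), limma with sample quality weights 411 (131 higher, 280 lower) and edgeR with RLE size factors 581 (359 higher, 222 lower). Lists of genes by function were therefore read against the shares for all tested genes, and their counts are given with those of the smaller fits.

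**Figure D1:**
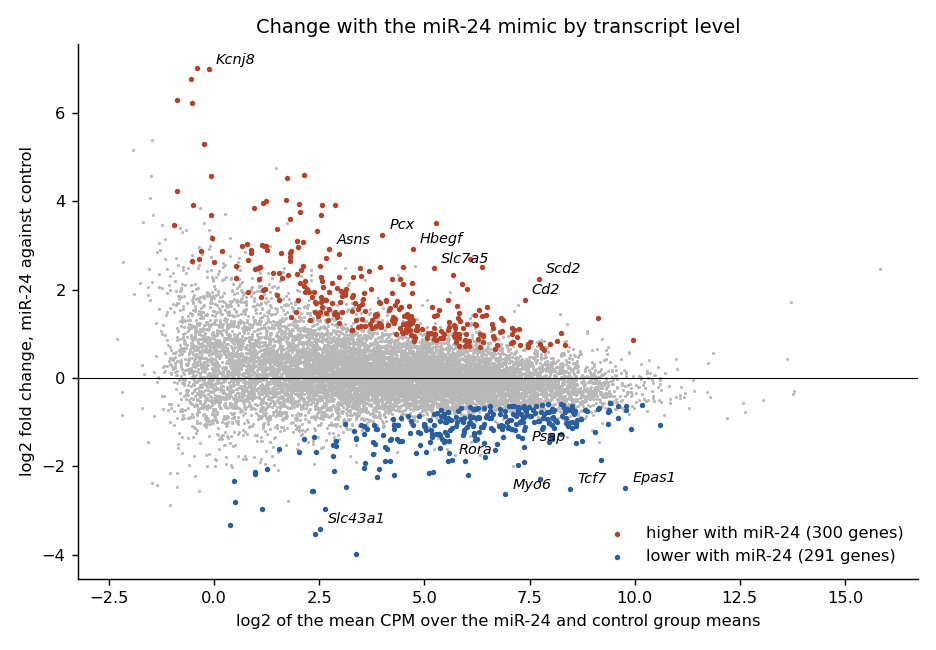
Each point is 1 of the 12952 tested genes, by the log2 of its mean CPM over both group means (x axis) and its log2 fold change with miR-24 against control (y axis). The 300 genes called higher (red) lie mostly at low levels and the 291 called lower (blue) at high levels, around a median of 0.04 for all genes.

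Scd2, Anxa1, Tns1, Dab2 and 6 other genes had the largest rises among genes with a mean log2-CPM of at least 3 that were called only with the replicate number in the fit, both with and without control replicate 1. Scd2, a desaturase that makes monounsaturated fatty acids, stood at 104, 182, 352 and 794 CPM in miR-24 replicates 1 to 4 and at 32.6, 43.8, 82.2 and 103 CPM in control replicates 1 to 4. Each miR-24 library was above the control library of its number, and the libraries of both groups did not overlap (log2 fold change 2.25 ± 0.25 SE). For Anxa1, a phospholipid-binding protein that restrains inflammation, the levels were 92.2, 132, 179 and 141 CPM with miR-24 and 16.3, 14.02, 55.0 and 35.5 CPM with control (2.51 ± 0.37), again without overlap. Tns1, tensin 1, which links integrins to actin, reached 149, 122, 78.0 and 52.8 CPM against 48.8, 40.0, 9.91 and 19.0 CPM (2.03 ± 0.28). The groups did not overlap, but the highest control value, of replicate 1, rests on 3 reads. Although Tns1 rose, its 3′ UTR holds an 8mer site of miR-24. Dab2, an endocytic adaptor, was far higher in miR-24 replicate 1 than in the others (179.8, 31.6, 35.2 and 47.7 CPM against 0, 8.53, 0.811 and 7.01 CPM; 3.52 ± 0.78, and 4.76 without control replicate 2). The others of this kind were Stra6, the receptor for retinol-binding protein, Pkhd1l1, a large membrane protein, P2ry14, a receptor for UDP-glucose, Angptl2, a secreted glycoprotein, Adcy4, an adenylyl cyclase, and Dennd3, an activator of a Rab GTPase, with log2 fold changes of 1.93 to 2.69 (SE 0.31 to 0.68). Angptl2, Anxa1, Scd2 and Tns1 stayed called whichever library was left out. For the remaining 6 genes named here, leaving out control replicates 1 to 4 in turn ended 0, 0, 5 and 3 calls and miR-24 replicates 1 to 4 0, 3, 4 and 1 (largest adjusted p 0.213, Stra6). None of these genes passed with group as the only term (adjusted p 0.0699 to 0.279).

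By the same choice, with the same limit on the level, Sfrp1, Cd24a, Ikzf3 and 7 other genes had the largest falls. Sfrp1, a secreted inhibitor of Wnt ligands, stood at 11.4, 66.1, 92.1 and 101 CPM in miR-24 replicates 1 to 4 and at 0, 193, 741 and 522 CPM in control replicates 1 to 4. With 0 reads, control replicate 1 fell below every miR-24 library, while control replicates 2 to 4 were above all of them (-2.28 ± 0.29). Cd24a, a sialylated surface glycoprotein, was at 11.9, 6.42, 15.3 and 49.1 CPM with miR-24 and 16.3, 16.1, 151 and 259 CPM with control (-2.20 ± 0.33). Its groups overlapped, with replicate 4 the highest of each group, and each miR-24 library was below the control library of its number. Ikzf3, the lymphoid transcription factor Aiolos, was at 645, 305, 144 and 118 CPM and 521, 1048, 873 and 1043 CPM (-1.86 ± 0.47), with miR-24 replicate 1 inside the control range. Also lower were St8sia6, a sialyltransferase, Tox2, an HMG-box transcription factor of follicular and exhausted T cells, Slamf6, a receptor of the SLAM family, Dgkk, a diacylglycerol kinase, Stc1, a secreted glycoprotein, Ccdc69 and Ica1l, with log2 fold changes of -1.68 to -2.13 (SE 0.32 to 0.48). Cd24a, Ica1l and Sfrp1 stayed called whichever library was left out. Of the other 7 calls named here, 0, 1, 6 and 5 ended with control replicates 1 to 4 left out in turn and 0, 6, 7 and 5 with miR-24 replicates 1 to 4 (largest adjusted p 0.212, Stc1). None of these genes passed with group as the only term (adjusted p 0.0688 to 0.273).

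**Figure D2:**
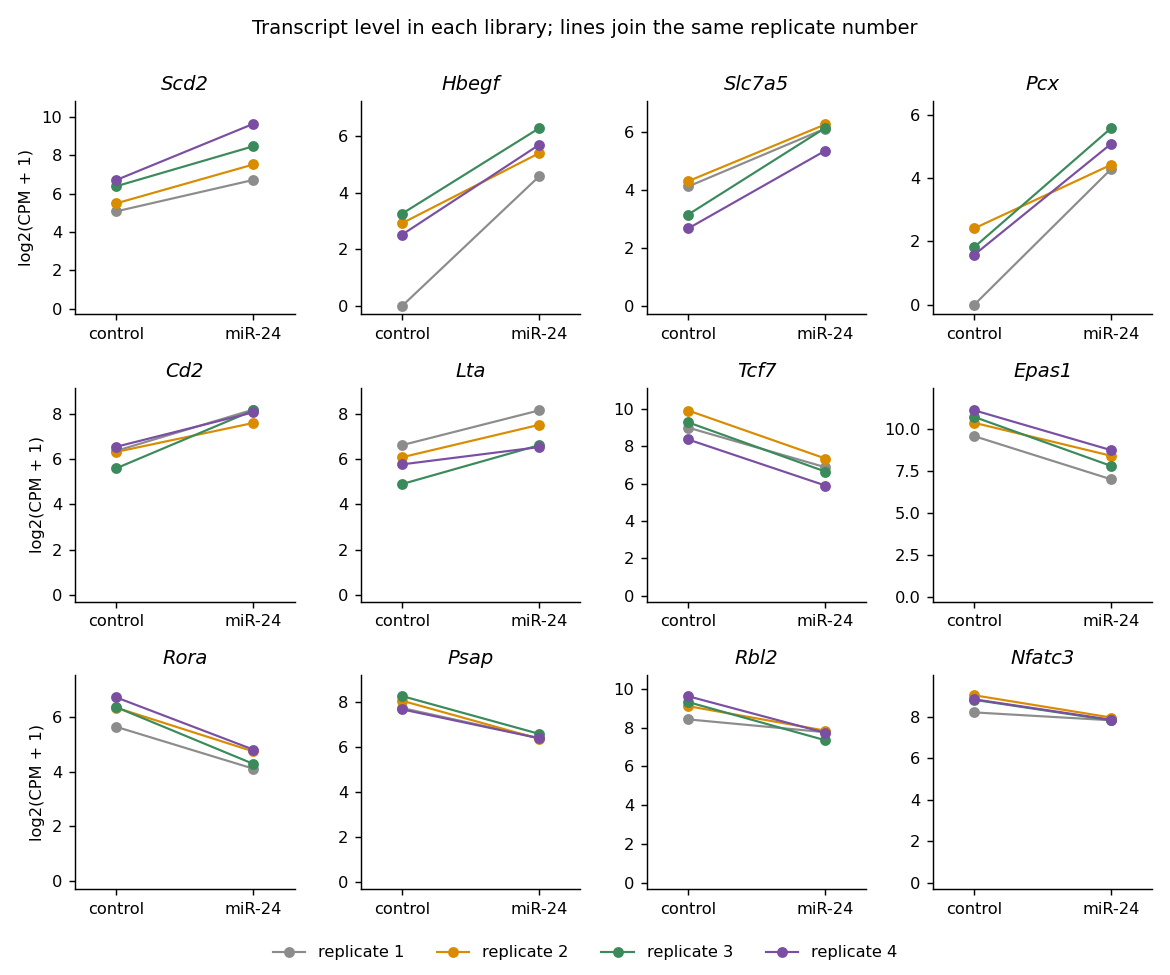
Level of 12 genes in each library, as log2(CPM + 1) on the y axis, with the control library on the left of each panel, the miR-24 library on the right and lines that join the same replicate number. All lines of Scd2, Hbegf, Slc7a5, Pcx, Cd2 and Lta rise and all lines of Tcf7, Epas1, Rora, Psap, Rbl2 and Nfatc3 fall, and Hbegf and Pcx had 0 reads in control replicate 1.

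Several genes of T cell quiescence, memory and lymph node homing were lower with miR-24. Of 37 tested, 6 fell and 0 rose (16.2%, against 4.56% of all tested genes), and the median log2 fold change was -0.33, against 0.04 for all genes. Tcf7, the transcription factor TCF-1 of naive and memory T cells, stood at 116, 160.3, 98.5 and 58.4 CPM in miR-24 replicates 1 to 4 and at 505, 951, 613 and 325 CPM in control replicates 1 to 4 (-2.51 ± 0.25). The highest miR-24 library was below the lowest control library. Klf2, a factor that keeps T cells quiescent and recirculating, was at 31.7, 30.1, 23.5 and 19.1 CPM against 48.8, 61.9, 70.4 and 68.3 CPM (-1.44 ± 0.25), where the value of control replicate 1 rests on 3 reads. Foxo1, a transcription factor of the same programme (-0.73 ± 0.18), Bach2, a repressor that restrains effector differentiation (-0.71 ± 0.19), Cd27, a costimulatory receptor of the TNF receptor family (-1.26 ± 0.34), and Itga4, the alpha 4 integrin chain (-1.07 ± 0.29), also fell. Klf2 and Tcf7 stayed called whichever library was left out. For the remaining 4 genes named here, leaving out control replicates 1 to 4 in turn ended 2, 3, 4 and 4 calls and miR-24 replicates 1 to 4 0, 4, 4 and 4 (largest adjusted p 0.185, Itga4). Tcf7 and Klf2 also passed with group as the only term, and the others did not (adjusted p 0.229 to 0.358). The list had 5, 3, 2 and 3 called members with control replicates 1 to 4 left out in turn, 11, 2, 2 and 3 with miR-24 replicates 1 to 4 left out, and 2 with group as the only term.

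Transcription factors of T cells moved in both directions. Of 85 tested in the list of other T cell transcription factors, 5 rose and 8 fell (15.3%). Rora, a nuclear receptor of Th17 and innate lymphoid cells, had the smallest adjusted p among them, at 16.2, 25.7, 18.4 and 26.9 CPM in miR-24 replicates 1 to 4 and at 48.8, 80.0, 81.1 and 104 CPM in control replicates 1 to 4 (-1.85 ± 0.22). The groups did not overlap. The other factors that fell were Myb, Runx1, Ikzf3, Nfil3, Ikzf1, which encodes Ikaros, Irf4, which effector T cells need, and Mxd1, a MAX partner that opposes MYC (log2 fold changes -0.60 to -1.86, SE 0.16 to 0.47). Those that rose were Irf8, Zbtb32, Bhlhe40, a factor induced by T cell activation, Batf3, an AP-1 factor, and Ets2, by 1.14 to 3.08 (SE 0.31 to 0.69). Rora stayed called whichever library was left out. Of the other 12 calls named here, 6, 5, 12 and 11 ended with control replicates 1 to 4 left out in turn and 0, 11, 12 and 10 with miR-24 replicates 1 to 4 (largest adjusted p 0.254, Mxd1). Rora also passed with group as the only term, and the others did not (adjusted p 0.117 to 0.266). This list had 7, 10, 1 and 3 called members with control replicates 1 to 4 left out in turn, 22, 2, 1 and 3 with miR-24 replicates 1 to 4 left out, and 1 with group as the only term.

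In the Th2 list, 7 of 40 tested genes fell and 1 rose (20.0% called; median -0.40), and the main cytokine genes of Th2 cells were not among them. Epas1, a hypoxia-inducible transcription factor abundant in these cells, stood at 125, 331, 218 and 418 CPM in miR-24 replicates 1 to 4 and at 749, 1299, 1655 and 2179.5 CPM in control replicates 1 to 4 (-2.49 ± 0.23). Every miR-24 library was below every control library. Maf, an activator of Il4 transcription, was at 99.7, 155, 121 and 181 CPM against 179, 266, 548 and 494 CPM (-1.31 ± 0.30), and control replicate 1, with 11 reads, lay inside the miR-24 range. Tcf7, described above, is on this list too. Il9, the cytokine of Th9 and mast cell responses, fell by 2.97 ± 0.57, Nfil3 by 0.73 ± 0.19, Ikzf1 by 0.60 ± 0.16 and Irf4 by 0.64 ± 0.18 on the log2 scale. Il9 was scarce, at 0.334, 0.0823, 0.340 and 5.07 CPM with miR-24 and 0, 0.490, 3.96 and 39.8 CPM with control. Its groups overlapped, and replicate 4 was the highest of each. Bhlhe40 rose by 1.36 ± 0.31. Il4 was at 11.0, 29.8, 16.3 and 19.1 CPM in miR-24 replicates 1 to 4 and at 16.3, 37.6, 30.7 and 34.4 CPM in control replicates 1 to 4 (-0.57 ± 0.27, adjusted p = 0.24). It was lower in each of the 4 pairs without passing the test, and its value in control replicate 1 rests on 1 read. Its 8mer site is shown above. Gata3, the transcription factor that defines Th2 cells, was at 89.7, 133, 203 and 269 CPM against 179, 181, 453 and 309 CPM (-0.68 ± 0.21, adjusted p = 0.0674). It stood lower in 4 of 4 pairs without passing the test. Il5 stood at -0.09 ± 0.59, Il13 at 0.85 ± 0.55, Il10 at -1.19 ± 0.39, Il4ra at 0.16 ± 0.26, Stat6 at 0.03 ± 0.20 and Nfatc2 at 0.13 ± 0.25 (adjusted p 0.0916 to 0.963). Epas1 and Tcf7 stayed called whichever library was left out. For the remaining 6 genes named here, leaving out control replicates 1 to 4 in turn ended 3, 3, 5 and 5 calls and miR-24 replicates 1 to 4 0, 4, 6 and 5 (largest adjusted p 0.169, Ikzf1). Epas1 and Tcf7 also passed with group as the only term, and the others did not (adjusted p 0.121 to 0.305). The Th2 list had 5, 5, 3 and 3 called members with control replicates 1 to 4 left out in turn, 12, 4, 2 and 4 with miR-24 replicates 1 to 4 left out, and 2 with group as the only term.

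Several genes of Th1 and cytotoxic cells were higher in these cells, which lack T-bet. Of 24 tested, 5 rose and 1 fell (25.0%; median 0.76). Il18rap, a chain of the IL-18 receptor, stood at 67.2, 80.7, 79.8 and 67.9 CPM in miR-24 replicates 1 to 4 and at 16.3, 27.1, 19.5 and 20.9 CPM in control replicates 1 to 4 (1.77 ± 0.28). The miR-24 libraries lay close together and well above the control libraries. Lta, lymphotoxin alpha, was at 286, 183, 97.6 and 91.9 CPM against 97.7, 67.1, 28.9 and 53.6 CPM (1.35 ± 0.24), higher in every pair but with overlapping groups. Gzmb, granzyme B (1.55 ± 0.37), and Tnf (1.03 ± 0.28) were also among those that rose, and Stat4, which carries IL-12 signals, fell (-1.07 ± 0.28). In the list of regulatory and follicular T cell genes, 2 of 24 rose (Cd200, 1.19 ± 0.27, and Tnfrsf9, which encodes 4-1BB, 1.42 ± 0.39) and 3 fell (Tox2, Slamf6 and Lrrc32, which anchors latent TGF-beta, -1.01 ± 0.26). The share called in the regulatory and follicular list was 20.8%, against 4.56% of all tested genes. Il18rap and Lta stayed called whichever library was left out. Of the other 6 calls named here, 3, 2, 6 and 6 ended with control replicates 1 to 4 left out in turn and 0, 6, 6 and 4 with miR-24 replicates 1 to 4 (largest adjusted p 0.247, Tnf). Il18rap also passed with group as the only term, and the others did not (adjusted p 0.133 to 0.525). The Th1 list had 5, 5, 2 and 2 called members with control replicates 1 to 4 left out in turn, 8, 2, 2 and 5 with miR-24 replicates 1 to 4 left out, and 1 with group as the only term. In the regulatory and follicular list these numbers were 3, 5, 0 and 1, then 7, 0, 0 and 2, and 0.

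Among secreted cytokines and growth factors, 7 of 36 tested rose and 3 fell (27.8%). Hbegf, an EGF family growth factor, stood at 22.9, 41.0, 76.5 and 50.7 CPM in miR-24 replicates 1 to 4 and at 0, 6.57, 8.56 and 4.72 CPM in control replicates 1 to 4 (2.93 ± 0.33). The lowest miR-24 library was above the highest control library. Tgfb3, a TGF-beta isoform, was scarce, at 2.84, 4.11, 5.52 and 4.27 CPM with miR-24 and 0, 0.490, 1.08 and 0.457 CPM with control (3.00 ± 0.58). Angptl2 was at 16.2, 66.8, 52.4 and 25.8 CPM against 16.3, 10.4, 15.1 and 4.27 CPM (2.16 ± 0.31), and only the single read of control replicate 1 overlapped the miR-24 range. Pdgfb, a platelet-derived growth factor chain (2.65 ± 0.57), and Osm, oncostatin M (0.88 ± 0.22), rose with Lta and Tnf. Lif, leukemia inhibitory factor (-1.23 ± 0.22), the scarce Il9 (-2.97 ± 0.57) and Tnfsf14, which encodes LIGHT (-1.39 ± 0.33), fell. Angptl2, Hbegf, Lif, Lta and Tgfb3 stayed called whichever library was left out. For the remaining 5 genes named here, leaving out control replicates 1 to 4 in turn ended 0, 1, 4 and 3 calls and miR-24 replicates 1 to 4 0, 3, 4 and 2 (largest adjusted p 0.247, Tnf). Hbegf and Lif also passed with group as the only term, and the others did not (adjusted p 0.0535 to 0.419). The list had 10, 10, 6 and 7 called members with control replicates 1 to 4 left out in turn, 10, 7, 6 and 8 with miR-24 replicates 1 to 4 left out, and 2 with group as the only term.

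Receptors at the cell surface also split. Of 25 tested receptors and adaptors of the TNF receptor superfamily, 4 fell (Tnfrsf26, -1.29 ± 0.19; Tnfrsf22, a decoy receptor for TRAIL; Tnfrsf1b, which encodes TNFR2; and Cd27) and 2 rose (Fas, the death receptor, 0.98 ± 0.26, and Tnfrsf9). The costimulatory ligand gene Tnfsf9 (1.31 ± 0.31) and the receptor gene Tnfrsf12a (2.82 ± 0.75) were higher, and Tnfsf10, which encodes TRAIL (-0.64 ± 0.18), lower. Of 29 chemokine and lipid trafficking receptors, 3 rose, among them Ltb4r1, the leukotriene B4 receptor, and P2ry14, and 2 fell, Gpr171 and P2ry10. The log2 fold changes of these 4 were -0.90 to 3.96. The shares called were 24.0% in the TNF receptor list and 17.2% in the trafficking receptor list, against 4.56% of all tested genes. Among 43 integrins and adhesion molecules, 4 rose and 5 fell (20.9%). Cd2, the T cell adhesion receptor for CD48, stood at 291, 193, 284 and 267 CPM in miR-24 replicates 1 to 4 and at 81.4, 78.7, 47.3 and 92.3 CPM in control replicates 1 to 4 (1.78 ± 0.23), with no overlap, while its ligand Cd48 fell (-0.64 ± 0.16). Fut7 (3.00 ± 0.80) and St3gal4 (1.13 ± 0.28), which build selectin ligands, and the junction adhesion molecule gene Amica1 (1.92 ± 0.38) rose. Chst2, a sulfotransferase for L-selectin ligands, was at 56.5, 63.7, 59.6 and 52.6 CPM against 130.2, 149, 376 and 311 CPM (-1.97 ± 0.29), and Itgb3 (-1.42 ± 0.27), Pecam1 (-0.71 ± 0.18) and Itga4 fell with it. Cd2, Chst2 and Tnfrsf26 stayed called whichever library was left out. Of the other 19 calls named here, 6, 8, 19 and 15 ended with control replicates 1 to 4 left out in turn and 0, 18, 16 and 10 with miR-24 replicates 1 to 4 (largest adjusted p 0.213, Tnfrsf9). Tnfrsf26, Cd2, Amica1, Chst2 and Itgb3 also passed with group as the only term, and the others did not (adjusted p 0.0644 to 0.426). The TNF receptor list had 5, 4, 1 and 2 called members with control replicates 1 to 4 left out in turn, 8, 1, 1 and 3 with miR-24 replicates 1 to 4 left out, and 1 with group as the only term. In the trafficking receptor list these numbers were 5, 4, 0 and 0, then 6, 0, 1 and 5, and 0. In the adhesion list these numbers were 7, 11, 2 and 5, then 16, 3, 4 and 7, and 4.

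**Figure D3:**
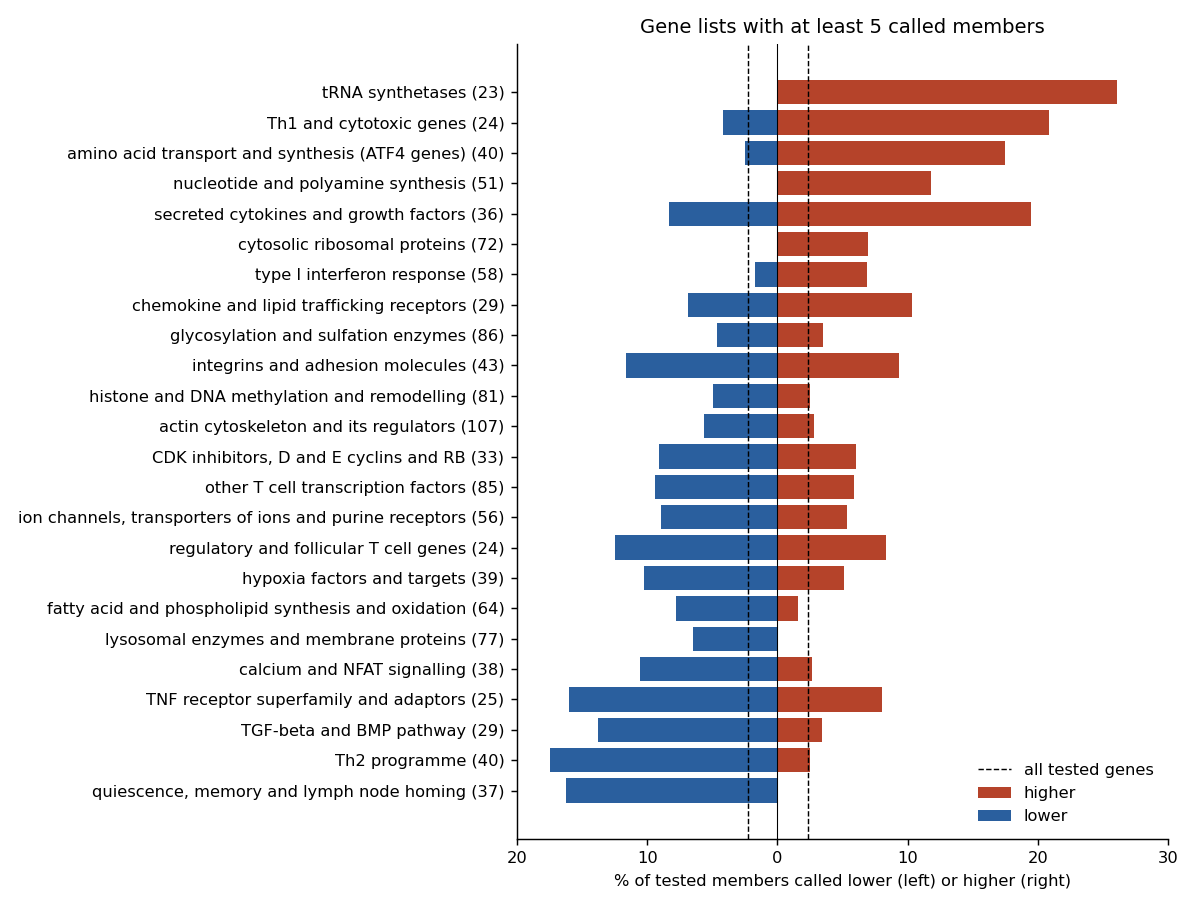
Bars give the percent of tested members called higher (red, right) or lower (blue, left) with miR-24 for each gene list with at least 5 called members, with the number tested in parentheses. The dashed lines mark 2.32% higher and 2.25% lower, the shares over all 12952 tested genes, and tRNA synthetases, with 6 of 23 higher, reach farthest to the right.

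Genes for the uptake and synthesis of amino acids, many of them targets of the stress factor ATF4, rose more often than they fell. Of 40 tested, 7 rose and 1 fell (20.0%; median 0.64). Slc7a5, the large neutral amino acid transporter LAT1, stood at 68.0, 75.3, 69.2 and 39.7 CPM in miR-24 replicates 1 to 4 and at 16.3, 18.6, 7.84 and 5.33 CPM in control replicates 1 to 4 (2.49 ± 0.34). The groups did not overlap. Asns, asparagine synthetase, was at 17.4, 11.4, 14.1 and 5.76 CPM against 0, 2.45, 1.35 and 0.914 CPM (2.92 ± 0.52), and Atf5, a transcription factor related to ATF4, at 30.6, 15.96, 30.7 and 13.5 CPM against 0, 5.20, 4.95 and 1.07 CPM (2.43 ± 0.46). Control replicate 1 had 0 reads of both. Phgdh, which opens serine synthesis (1.66 ± 0.32), Shmt2, the mitochondrial serine hydroxymethyltransferase (1.38 ± 0.36), Aldh18a1 of proline synthesis (1.11 ± 0.30) and the neutral amino acid transporter gene Slc1a4 (1.95 ± 0.45) rose as well. Slc43a1, a leucine transporter, fell (-3.41 ± 0.55). Of 23 tRNA synthetases, which load amino acids onto tRNAs, 6 rose and 0 fell (26.1%; median 0.31). Vars, the valine enzyme, was at 106, 139, 162 and 142 CPM against 48.8, 68.1, 57.7 and 51.8 CPM (1.23 ± 0.20), and Yars, Mars, Cars, Tars and Sars rose by 0.90 to 1.39 (SE 0.22 to 0.39). Asns, Atf5, Slc43a1, Slc7a5 and Vars stayed called whichever library was left out. For the remaining 9 genes named here, leaving out control replicates 1 to 4 in turn ended 3, 1, 9 and 6 calls and miR-24 replicates 1 to 4 0, 5, 8 and 4 (largest adjusted p 0.243, Sars). Slc7a5, Asns, Slc43a1, Vars and Yars also passed with group as the only term, and the others did not (adjusted p 0.0537 to 0.268). The amino acid list had 7, 8, 4 and 5 called members with control replicates 1 to 4 left out in turn, 9, 6, 5 and 7 with miR-24 replicates 1 to 4 left out, and 3 with group as the only term. In the synthetase list these numbers were 4, 5, 1 and 3, then 7, 3, 1 and 3, and 2.

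Other metabolic genes moved in both directions. Among 51 genes of nucleotide and polyamine synthesis, 6 rose and 0 fell (11.8%): Gart and Impdh1 of purine synthesis, Ctps of cytidine synthesis, the purine salvage genes Pnp and Aprt, and the kinase gene Nme1 (1.18 to 1.40, SE 0.26 to 0.36). Pcx, pyruvate carboxylase, which makes oxaloacetate from pyruvate, stood at 18.5, 20.4, 46.8 and 32.9 CPM in miR-24 replicates 1 to 4 and at 0, 4.31, 2.52 and 1.98 CPM in control replicates 1 to 4 (3.24 ± 0.49, and 4.09 without control replicate 2). All miR-24 libraries were above all control libraries. G6pdx, one of the genes with an 8mer site shown above, moved the other way, at 40.9, 45.1, 49.5 and 64.0 CPM against 97.7, 192, 218 and 105 CPM (-1.63 ± 0.27), while the next enzyme of its pathway, Pgls, rose (1.71 ± 0.43). In the list of the pentose phosphate pathway, pyruvate and the citric acid cycle, these 3 and Mdh1, malate dehydrogenase (-1.17 ± 0.29), were the ones called among 52. In glycolysis, Aldoc (1.88 ± 0.46), Hk2, hexokinase 2 (0.96 ± 0.25), and the lactate exporter gene Slc16a3 (1.74 ± 0.47) rose and Pgk1 fell (-1.11 ± 0.23) among 32. Among 64 genes of fatty acid and phospholipid metabolism, Scd2 rose and 5 fell. These were Cpt1a and Acadm of fatty acid oxidation, Sptlc2 and Ugcg of sphingolipid synthesis and Acss1, an acetyl-CoA synthetase (-0.86 to -2.10, SE 0.20 to 0.56). The shares called were 7.69% in the pyruvate list, 12.5% in the glycolysis list and 9.4% in the fatty acid list, against 4.56% of all tested genes. G6pdx, Pcx and Scd2 stayed called whichever library was left out. Of the other 17 calls named here, 5, 9, 17 and 14 ended with control replicates 1 to 4 left out in turn and 0, 15, 17 and 11 with miR-24 replicates 1 to 4 (largest adjusted p 0.246, Acadm). Gart, Pcx, G6pdx and Cpt1a also passed with group as the only term, and the others did not (adjusted p 0.0883 to 0.482). The nucleotide list had 7, 5, 0 and 0 called members with control replicates 1 to 4 left out in turn, 13, 1, 0 and 2 with miR-24 replicates 1 to 4 left out, and 1 with group as the only term. In the fatty acid list these numbers were 4, 4, 1 and 3, then 9, 2, 1 and 3, and 1. In the glycolysis list these numbers were 3, 2, 0 and 1, then 5, 1, 0 and 2, and 0. In the pyruvate list these numbers were 4, 6, 2 and 2, then 5, 2, 2 and 2, and 2.

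Cytosolic ribosomal protein genes had positive fold changes in 66 of 72, with a median of 0.45, against 53.1% positive and a median of 0.04 for all tested genes. Few passed the test: 5 rose (Rpl13, Rpl9, Rpl27, Rpl32 and Rpl37, 0.67 to 1.09, SE 0.18 to 0.26) and 0 fell (6.94%). For the 5 genes named here, leaving out control replicates 1 to 4 in turn ended 4, 3, 5 and 4 calls and miR-24 replicates 1 to 4 0, 5, 5 and 4 (largest adjusted p 0.194, Rpl32). None of these genes passed with group as the only term (adjusted p 0.0753 to 0.219). The list had 1, 3, 0 and 1 called members with control replicates 1 to 4 left out in turn, 23, 0, 0 and 1 with miR-24 replicates 1 to 4 left out, and 0 with group as the only term. Ribosomal protein genes have many near-identical pseudogenes, among which reads can be split, so these values are uncertain. Lists of DNA repair (52 tested), heat shock proteins (37), the proteasome (46) and T cell receptor and CD28 signalling (45) had 0 genes called by edgeR. At an unadjusted p under 0.05 they had 9, 6, 8 and 18, against 2624 of all 12952 tested genes. DESeq2 called 5, 3, 2 and 5, against 1029 of 12198 genes, and limma 1, 2, 0 and 4, against 411 of 12952. The median log2 fold change of the receptor signalling list was -0.32.

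Lists of signalling genes differed in direction. Of 37 immediate early genes, which stimulation induces early, 3 rose and 1 fell (10.8%; median 0.55), and of 52 genes of the MAP kinase and AP-1 list 1 rose and 2 fell (5.77%). The NF-kB list, with 1 of 32 higher, and the PI3K and mTOR list, with 2 of 51 lower, were below the share of 4.56% for all tested genes. In the calcium and NFAT list 4 of 38 fell and 1 rose (13.2%). Nfatc3, a transcription factor that calcium and calcineurin send to the nucleus, stood at 225, 247, 224 and 229 CPM in miR-24 replicates 1 to 4 and at 293, 520.0, 447 and 454 CPM in control replicates 1 to 4 (-0.91 ± 0.16). The miR-24 libraries were close together and all below the control libraries. Clcn3, a chloride and proton exchanger of endosomes, was at 51.0, 55.4, 68.2 and 71.8 CPM against 65.1, 194, 137 and 123 CPM (-1.14 ± 0.21), and overlapped only with control replicate 1. Atp2b1, a plasma membrane calcium pump (-0.57 ± 0.16), and Orai2, a store-operated calcium channel (-0.74 ± 0.20), fell, and Camk4, a calmodulin-dependent kinase, rose (0.68 ± 0.18). In the TGF-beta and BMP list, 4 of 29 fell and Tgfb3 rose. Pmepa1, which limits SMAD signalling, was at 109.6, 72.9, 65.0 and 103 CPM against 195, 246, 172 and 228 CPM (-1.32 ± 0.18), with no overlap, and the receptor genes Acvr1b (-1.30 ± 0.27) and Bmpr2 (-1.29 ± 0.29) and the corepressor gene Ski (-0.58 ± 0.16) fell with it. Of 33 Notch and Wnt genes, 4 fell and 0 rose. Those that fell included Tcf7, Nlk, a kinase that acts on TCF factors (-0.98 ± 0.25), and Maml1, a coactivator of Notch (-0.76 ± 0.21). Among 39 hypoxia factors and targets, Epas1, Rora, Vhl, which marks HIF proteins for degradation (-1.07 ± 0.26), and Ero1l (-0.76 ± 0.21) fell, and Bhlhe40 and Ndrg1 (0.99 ± 0.26) rose. The shares called were 17.2% in the TGF-beta list, 12.1% in the Notch and Wnt list and 15.4% in the hypoxia list. Clcn3, Epas1, Nfatc3, Pmepa1, Rora, Tcf7 and Tgfb3 stayed called whichever library was left out. Of the other 12 calls named here, 6, 6, 12 and 11 ended with control replicates 1 to 4 left out in turn and 0, 12, 12 and 8 with miR-24 replicates 1 to 4 (largest adjusted p 0.249, Ero1l). Nfatc3, Clcn3, Pmepa1, Epas1, Rora and Tcf7 also passed with group as the only term, and the others did not (adjusted p 0.0669 to 0.39). The calcium list had 3, 2, 2 and 2 called members with control replicates 1 to 4 left out in turn, 5, 2, 2 and 3 with miR-24 replicates 1 to 4 left out, and 2 with group as the only term. In the immediate early list these numbers were 3, 7, 0 and 1, then 11, 2, 1 and 2, and 0. In the TGF-beta list these numbers were 4, 5, 2 and 3, then 7, 2, 2 and 3, and 1. In the Notch and Wnt list these numbers were 3, 3, 1 and 2, then 6, 2, 2 and 4, and 2. In the hypoxia list these numbers were 4, 5, 2 and 2, then 8, 2, 2 and 3, and 2.

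Membrane transport and lysosomal genes included several large decreases. Of 56 ion channels, ion transporters and purine receptors, 5 fell and 3 rose (14.3%). P2rx7, the ATP-gated channel with an 8mer site shown above, stood at 5.35, 5.76, 6.20 and 2.09 CPM in miR-24 replicates 1 to 4 and at 32.6, 13.5, 37.3 and 13.6 CPM in control replicates 1 to 4 (-2.25 ± 0.32). The groups did not overlap. Nipal1, a magnesium transporter, was at 8.86, 5.02, 6.71 and 10.7 CPM against 0, 33.3, 49.2 and 41.6 CPM (-2.19 ± 0.35), with 0 reads in control replicate 1. Slc25a23, a mitochondrial ATP-magnesium carrier (-2.14 ± 0.30), and P2ry1, an ADP receptor (-0.94 ± 0.23), fell with Clcn3, and Trpv2 (1.56 ± 0.30), P2ry14 and Tmem38b (1.39 ± 0.36) rose. Of 77 lysosomal genes, 5 fell and 0 rose (6.49%). Psap, prosaposin, the precursor of the saposins that help lysosomal enzymes degrade sphingolipids, was at 83.2, 81.2, 94.9 and 82.7 CPM against 212, 265, 306 and 203 CPM (-1.56 ± 0.19). The highest miR-24 library was far below the lowest control library. The membrane protein genes Laptm4b, Ostm1, Cd164 and Cd63 fell (log2 fold changes -0.89 to -2.55, SE 0.20 to 0.58). Among 107 genes of the actin cytoskeleton and its regulators, 6 fell and 3 rose (8.41%). Myo6, an actin motor that moves toward the minus end, was at 37.4, 45.1, 26.3 and 23.1 CPM against 228, 322, 184 and 106 CPM (-2.63 ± 0.29), without overlap. Iqgap2, Capzb, Cfl2, Rhob and Arhgef18 fell (-0.75 to -1.24), and Iqgap3, Pfn2 and Myo1c rose (0.76 to 2.88). The efflux pump gene Abcb1b, of the P-glycoprotein family, was at 33.2, 23.4, 37.0 and 33.7 CPM against 0, 8.33, 6.04 and 8.08 CPM (2.24 ± 0.36), and its neighbour in sequence Abcb1a also rose (2.34 ± 0.54), so reads shared between them make both less certain. Atp8b4, a lipid flippase (2.13 ± 0.31), and Psd3, an ARF6 exchange factor (2.52 ± 0.47), rose. Abcb1b, Atp8b4, Clcn3, Iqgap3, Myo6, Nipal1, P2rx7, Psap and Slc25a23 stayed called whichever library was left out. For the remaining 16 genes named here, leaving out control replicates 1 to 4 in turn ended 7, 6, 14 and 9 calls and miR-24 replicates 1 to 4 0, 11, 13 and 9 (largest adjusted p 0.197, Arhgef18). P2rx7, Nipal1, Slc25a23, Clcn3, Psap, Ostm1, Cd164, Myo6, Iqgap3, Abcb1b, Atp8b4 and Psd3 also passed with group as the only term, and the others did not (adjusted p 0.0756 to 0.604). The channel and transporter list had 7, 10, 5 and 6 called members with control replicates 1 to 4 left out in turn, 14, 5, 5 and 7 with miR-24 replicates 1 to 4 left out, and 4 with group as the only term. In the lysosome list these numbers were 4, 8, 2 and 4, then 8, 3, 2 and 5, and 3. In the actin list these numbers were 4, 7, 2 and 5, then 15, 3, 2 and 2, and 2.

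Genes of the cell cycle and of chromatin moved in both directions. Of 33 CDK inhibitors, cyclins and RB family genes, 3 fell and 2 rose (15.2%). Rbl2, the RB family protein p130 that represses cell cycle genes in resting cells, stood at 216, 228, 162 and 211 CPM in miR-24 replicates 1 to 4 and at 342, 549, 635 and 782 CPM in control replicates 1 to 4 (-1.48 ± 0.21). Each control library was above every miR-24 library. Cdkn1b, the inhibitor p27 (-0.996 ± 0.25), and E2f8 (-0.89 ± 0.23) fell, and Cdkn2b (2.28 ± 0.49) and Cdkn2a (2.91 ± 0.80), inhibitors of CDK4 and CDK6, rose. Both of these were scarce, with 0 reads in control replicate 1. Of 55 replication genes, Rfc3, Uhrf1 and Orc1 rose (0.73 to 1.19), and of 54 mitosis genes Cenpf fell (-0.89 ± 0.24). These shares, 5.45% and 1.85%, were near and below the 4.56% for all tested genes. Of 81 genes of histone and DNA methylation and chromatin remodelling, 4 fell (Rnf2, Smarcc1, Arid2 and Kdm2b) and 2 rose (Smarcb1 and Uhrf1), and of 55 acetylation genes 4 fell (among them Tada2b, Myst3 and Sirt1) and 0 rose. The shares called in these lists were 7.41% and 7.27%, against 4.56% of all tested genes. The log2 fold changes ran from -0.59 to -1.56 for the chromatin genes named here that fell. Tada2b, an adaptor of histone acetyltransferase complexes, changed most among these (-1.56 ± 0.28). Tmem173, which encodes the DNA sensing adaptor STING and lies in none of the lists named here, was at 51.5, 47.5, 57.8 and 63.6 CPM against 81.4, 124, 142 and 101 CPM (-1.10 ± 0.19), with no overlap. Of 58 interferon response genes, Ly6a, Oasl2, Tap1 and Ifitm3 rose and Ifi47 fell (8.62%; median 0.19). Rbl2, Rnf2, Tada2b and Tmem173 stayed called whichever library was left out. Of the other 19 calls named here, 7, 9, 19 and 17 ended with control replicates 1 to 4 left out in turn and 0, 17, 19 and 13 with miR-24 replicates 1 to 4 (largest adjusted p 0.279, Ifitm3). Rbl2, Cdkn2b, Rnf2, Tada2b, Myst3 and Tmem173 also passed with group as the only term, and the others did not (adjusted p 0.0644 to 0.391). The CDK inhibitor list had 3, 4, 1 and 1 called members with control replicates 1 to 4 left out in turn, 8, 2, 1 and 3 with miR-24 replicates 1 to 4 left out, and 2 with group as the only term. In the methylation and remodelling list these numbers were 5, 2, 1 and 1, then 17, 1, 1 and 1, and 1. In the acetylation list these numbers were 3, 4, 1 and 2, then 7, 2, 1 and 2, and 2. In the interferon list these numbers were 4, 4, 0 and 0, then 11, 0, 0 and 2, and 0.

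Sites for the miR-24 seed were more frequent in the UTRs of genes that fell. Among the 286 genes that fell and have an annotated UTR, 59 held an 8mer (20.6%) and 146 any of the 3 kinds of site (51.0%). Over all 12014 tested genes searched the shares were 8.95% and 27.0%, and among the 296 genes that rose 3.04% and 16.9%. UTR length moved with direction too, with a median of 2078.5 bases for genes that fell, 896 for genes that rose and 1235 for all searched genes. Sites of the other mimics, read in the same genes, were found in 37.8% (miR-23a) and 42.0% (miR-27a) of genes that fell, against 25.3% and 29.7% of all. With the genes split into 3 groups of equal size by UTR length, in the group with the shortest UTRs (up to 742.0 bases), 3.72% of those with a miR-24 site fell, against 0.711% of those without. In the middle group the shares were 3.65% and 1.86%, and in the group with the longest (from 1905.0 bases) 5.09% and 2.77%. The share was larger with a site in each group. By kind of site, 5.49% of genes with an 8mer fell, 2.75% with a 7mer-m8, 5.80% with a 7mer-A1 and 1.60% with none, and the median log2 fold changes were -0.10, 0.03, -0.11 and 0.08.

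**Figure D4:**
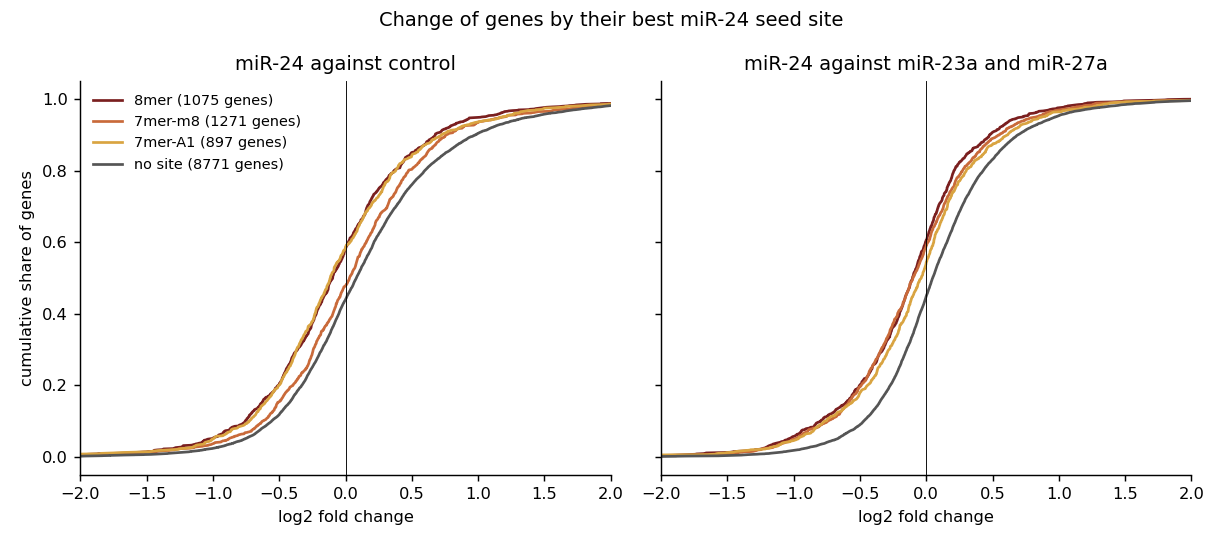
Cumulative share of genes (y axis) by log2 fold change (x axis, cut at -2 and 2) for genes grouped by their best miR-24 site, against control on the left and against the other mimics on the right. Genes with an 8mer or a 7mer-A1 lie left of genes with no site in both panels, and 7mer-m8 genes, near the no-site curve on the left (median 0.03), join the other site classes on the right (median -0.10).

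The genes with an 8mer whose windows are printed fell as follows. Sub1 stood at 179.8, 152, 99.8 and 114 CPM in miR-24 replicates 1 to 4 and at 374, 391, 360.3 and 335 CPM in control replicates 1 to 4 (-1.45 ± 0.20), and Frmd8, a FERM domain protein that binds the iRhom partners of a membrane protease, at 34.3, 45.8, 44.8 and 40.5 CPM against 97.7, 83.5, 126 and 111 CPM (-1.28 ± 0.19). Neither gene's groups overlapped. Sri, the calcium-binding protein sorcin, was at 61.2, 89.4, 91.5 and 91.1 CPM against 130.2, 244, 194 and 167 CPM (-1.15 ± 0.19), with all miR-24 libraries below all control libraries. Plxnc1, a semaphorin receptor, was at 43.3, 23.0, 22.7 and 32.4 CPM against 32.6, 80.9, 46.9 and 87.0 CPM (-1.29 ± 0.23), and overlapped with control replicate 1, whose value rests on 2 reads. Avl9, of the late secretory pathway, fell by 1.17 ± 0.18 and Rnf2, a ubiquitin ligase of Polycomb repressive complex 1, by 1.23 ± 0.22 on the log2 scale, beside P2rx7 and G6pdx. Avl9, Frmd8, G6pdx, P2rx7, Plxnc1, Rnf2, Sri and Sub1 stayed called whichever library was left out. Sub1, P2rx7, Frmd8, Avl9, Sri, G6pdx and Rnf2 also passed with group as the only term, and the other did not (adjusted p 0.089). Of 31 tested genes reported elsewhere as miR-24 targets, 3 fell (Acvr1b, Cdkn1b and Nlk) and 1 rose (Cdkn2a), or 12.9%, with a median of -0.17. That list had 3, 3, 0 and 1 called members with control replicates 1 to 4 left out in turn, 6, 0, 0 and 2 with miR-24 replicates 1 to 4 left out, and 0 with group as the only term.

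A direct test set the miR-24 libraries against the mean of the miR-23a and miR-27a libraries. The control libraries had no weight in this contrast, but they shared the fit, with its filter, scaling, spread and replicate term. The test called 760 of 12952 genes, 348 higher and 412 lower with miR-24 (5.87%, 2.69% and 3.18%). With group as the only term it called 175, 72 of them higher, and without miR-24 replicate 2, miR-24 replicate 3 or miR-27a replicate 2 it called 260, 217 and 457. Psap had log2 fold changes against control of -1.56 with miR-24, 0.01 with miR-23a and 0.04 with miR-27a, and Tcf7 of -2.51 with miR-24, 0.06 with miR-23a and -0.28 with miR-27a. In the direct test Psap stood at -1.58 ± 0.17 and Tcf7 at -2.40 ± 0.23, so both were lower with miR-24 than the mean of the other mimics. Il18rap (1.92 ± 0.21), Lta (1.44 ± 0.18), Hbegf (1.94 ± 0.23), Scd2 (1.56 ± 0.18), Asns (2.29 ± 0.36), Slc7a5 (1.76 ± 0.25) and Vars (0.99 ± 0.15) were higher than the mean of the other mimics. Against control, Scd2 also rose with miR-23a (1.15, adjusted p = 0.0401) and Hbegf with miR-27a (1.24, adjusted p = 0.0473). The 8 genes with the printed sites were lower than the mean of the other mimics (-0.92 to -1.29; adjusted p 0.000931 to 0.0121), as were Tmem173 (-1.16 ± 0.16), Pmepa1 (-1.13 ± 0.16) and Clcn3 (-0.94 ± 0.17). A difference from this mean is not a difference from each mimic. P2rx7, for example, also fell with miR-27a against control (-1.51, adjusted p = 0.0195). Epas1 fell with each mimic in value (-2.49 with miR-24, -0.90 with miR-23a and -1.55 with miR-27a) and differed in the direct test as well (-1.26 ± 0.20). Other genes called against control did not pass the direct test. Angptl2 had 2.16 with miR-24, 0.75 with miR-23a and 3.23 with miR-27a (direct 0.17 ± 0.22, adjusted p = 0.741). Ikzf3 stood at -0.32 ± 0.39, Maf at -0.05 ± 0.24, Ikzf1 at -0.06 ± 0.14, Nipal1 at -0.57 ± 0.30, Myo6 at -0.81 ± 0.24 and Klf2 at -0.68 ± 0.21 in it (adjusted p 0.0516 to 0.948). The quiescence and homing list, with a median of -0.33 against control, had a median of -0.01 against the other mimics, with 1 of 37 members higher and 3 lower. Of 40 amino acid genes, 9 were higher and 1 lower in the direct test, of 72 cytosolic ribosomal proteins 11 and 0, and of 23 tRNA synthetases 5 and 1. Of 40 Th2 genes, 1 was higher and 2 lower, near the share of 5.87% for all tested genes. By kind of miR-24 site, 7.63% of genes with an 8mer, 7.40% with a 7mer-m8 and 7.58% with a 7mer-A1 were lower in the direct test, against 1.88% of genes without a site.

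**Figure D5:**
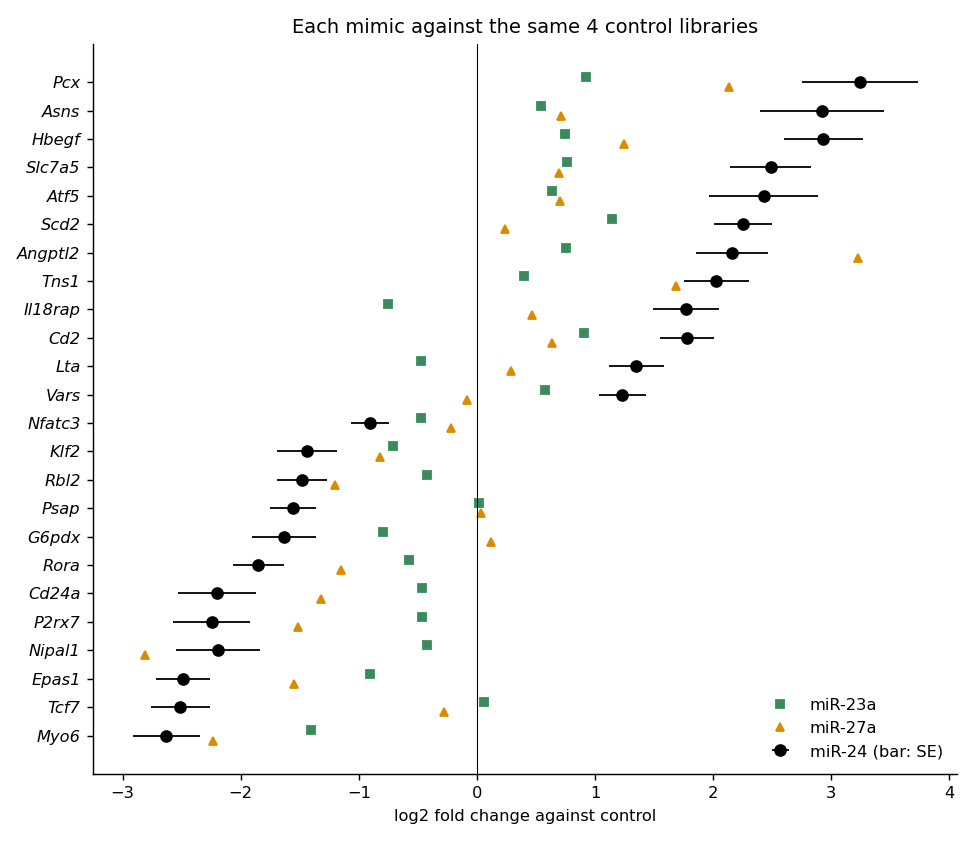
Log2 fold change against the same 4 control libraries (x axis) of 24 genes with miR-24 (black circles, bars are SE), miR-23a (green squares) and miR-27a (orange triangles). Psap and Tcf7 lie near 0 with the other mimics, while Nipal1 and Angptl2 lie farther from 0 with miR-27a than with miR-24.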

How the data were processed

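RNA of sorted CD4+ T cells was sequenced for 4 libraries per mimic. The authors deposited raw counts of reads per gene symbol, and per the submitters' processing notes the tools included TopHat, Bowtie2 and DESeq, with mm10 as the build. The counting program, annotation and strand setting are not given in the sources used here, so overlapping and antisense genes cannot be told apart. The 5 closing summary lines, 64.6% to 77.6% of all counted reads, were left out.

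From the counts, edgeR 4.0.16 (R 4.3.3) fitted group plus replicate number to all 16 libraries (filterByExpr, TMM, robust quasi-likelihood test, two-sided, Benjamini-Hochberg adjusted p under 0.05), so the groups share 1 estimate of the spread. An SE is the log2 fold change divided by the square root of F. The replicate number was kept because the comparison was set up that way. The labels do not say what it marks. It met the check for pairing, a correlation above 0.1 between libraries of the same number, in 3 of 4 numbers. Only numbers 2 and 3 matched their own number best from both groups. CPM values are on TMM library sizes. Alternatives were group as the only term, the 8 libraries alone, each library left out, RLE factors, no count filter, DESeq2 1.42.0 and limma 3.58.1 (voom with sample weights). Sites were searched in the longest GENCODE M21 3′ UTR per symbol, on the transcript strand, for 12014 tested genes. Gene lists and library comparisons were chosen with earlier results of these data known. Genes named were, at a mean log2-CPM of at least 3, up to 10 per direction with the largest changes that only the fit with the replicate number called (with and without control replicate 1), up to 5 per direction called in both designs, up to 3 per direction of each list or family with at least 3 calls, up to 8 lowered genes with an 8mer, and 12 genes of Th2 biology or of the genotype. Other called members of lists were named after their values were seen. A few genes are not reported here.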

Additional observations from a re-analysis of the deposited data

Results flagged for a closer look

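Of 92 sets of 4 libraries examined, 9 had 1 library far from the other 3 (Dixon's gap-to-range ratio above its 95% critical value), and chance gives about 1 in 20. In the miR-24 group, log2-CPM of Slc7a5 was 5.32 in replicate 4, against 6.09 to 6.24 in the others, and P2rx7 was 1.22 in replicate 4, against 2.48 to 2.69. Psap was 6.57 in replicate 3, against 6.35 to 6.38, and Sri was 5.94 in replicate 1, against 6.49 to 6.52. These 4 genes stayed called without the library that stands apart.

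The other 5 sets concern control replicate 1, the shallow library. It had reads in 7292 genes, against 14175 to 14744 in the other control libraries. Hbegf, Abcb1b, Sfrp1 and Nipal1 had 0 reads there (log2-CPM -2.05 each, which the added prior count sets), against 2.31 to 3.14 for Hbegf, 2.65 to 3.10 for Abcb1b, 7.60 to 9.53 for Sfrp1 and 5.07 to 5.63 for Nipal1 in the other control libraries.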

How the results depend on the processing

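The count of 591 genes (300 higher, 291 lower) fell to 110 (38, 72) with no replicate block, to 106 (28, 78) with no block and without control replicate 1, and to 34 (14, 20) with the 8 libraries alone and no block. With the block, the 8 libraries alone gave 471 (300, 171), DESeq2 1029 (622, 407) and limma 411 (131, 280). Leaving out 1 library gave 123 to 1490 genes (49 to 723 higher, 74 to 767 lower). RLE factors, which shifted the median log2 fold change by 0.07, gave 581 (359, 222), and no count filter 530. The direct test against the other mimics, 760 genes, gave 175 (72 higher, 103 lower) with no block, 1179 (607 higher) by DESeq2 and 217 to 927 (98 to 428 higher, 119 to 499 lower) without 1 library. The causes were not tested.

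In the check of pairing, the deviations of control and miR-24 libraries of the same number correlated at 0.170, 0.353, 0.460 and 0.0304 for numbers 1 to 4 over 4746 genes, and each library of numbers 2 and 3 matched its own number best. The biological coefficient of variation was 0.290 with the block and 0.389 without it.

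Il5 changed sign, from -0.09 to 0.38 with no block (also 0.38 in the 8 libraries alone), 0.51 with no block and without control replicate 1, 0.0706 in the 8 libraries alone with the block and 0.80 by limma, and ran from -0.83 to 0.81 without 1 library. Stat6 went from 0.03 to -0.0636, -0.0532 (8 libraries alone) and -0.0887 (without control replicate 1 too) with no block, and from -0.16 to 0.26 without 1 library. Without 1 library Il4ra ran from -0.0492 to 0.45 and Nfatc2 from -0.0542 to 0.43. Depth limits control replicate 1, where 3 reads are worth 48.8 CPM.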
